A study of Homo sapiens with 15 samples.

Results

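PGRMC1 and 9 further genes of haem handling were followed across every library of this series: its relative PGRMC2, the haem lyase HCCS, the porphyrin transporter ABCB6, the synthesis enzymes ALAS1, UROD, CPOX and FECH, and the haem oxygenases HMOX1 and HMOX2. The 10 genes were taken by symbol from the 18485 genes counted, and all 10 were found. PGRMC1 was selected on its counts in these libraries, since an earlier reading had found it lower with the mutated full-length construct than with empty vector. Its comparisons that use empty-vector or mutated full-length libraries are therefore given below as descriptions, and it is left out of the counts of members that passed. The other members, gene lists and rules were also chosen with earlier results of these data known, so p-values may not be independent of that choice.

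SNB19 is a human glioblastoma cell line, grown here in DMEM with 10% FBS and transduced with lentiviral pCHMWS vectors. The empty vector (EV) was compared with ZBTB18, a zinc finger transcriptional repressor, as the full-length protein (FL), its mutant (FL-mut), the short form SF-Nte and the mutant of that form (SF-mut). Every group thus carried a lentiviral vector. The labels do not give the mutated residues, the time after transduction, or whether cells were pooled or cloned. Each of the 5 groups had 3 libraries of polyadenylated RNA read as amplified cDNA by Nanopore sequencing. Whether these came from separate cultures is not stated, and p-values reflect the scatter among these libraries, which may be technical.

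Each EV library held 1274474 to 1930245 counts. FL libraries held 803316 to 1393060 and FL-mut libraries 865997 to 1313573, whereas the short forms were shallower, with 432611 to 603155 for SF-Nte and 315693 to 597414 for SF-mut. ZBTB18 lay between 4.37 and 7.12 CPM in EV (CPM, the count scaled to a common library size after TMM correction for composition) and between 199 and 6858 CPM in the 12 construct libraries. It lay at 623 to 3067 CPM in FL, 907 to 6858 in FL-mut, 199 to 470 in SF-Nte and 853 to 3631 in SF-mut. SF-Nte was thus below every library of the other constructs. Comparisons of SF-Nte with other constructs therefore differ in ZBTB18 level too, and the part of that level was not tested. Summed markers of the glioblastoma line (8 of 8 read) lay between 472.8 and 1015 CPM in EV and between 197 and 445 CPM in FL. They lay at 582 to 872 CPM in FL-mut, 874 to 1018 in SF-Nte and 890 to 1150 in SF-mut. FL was thus below all other groups without overlap in this sum. VIM and CD44 weigh most in it, with medians of 521 and 134 CPM. The mesenchymal markers VIM (143 to 844 CPM) and CD44 (48.5 to 579 CPM) were read in every library. NES and SOX2 were also read in every library, with medians of 13.8 and 10.9 CPM. SOX9 and CHI3L1 had medians of 4.37 and 3.40 CPM, and GFAP and S100B each had a median of 0 CPM. Of 8 erythroid markers, 6 were read, and their summed level was at most 8.85 CPM. Summed neuronal markers (4 of 4 read) reached 4.45 CPM in EV and 7.46 in FL, and lay at 13.1 to 88.3 in FL-mut. SF-Nte had 0 to 5.65 CPM of them and SF-mut 4.90 to 37.0, and TUBB3 alone reached 87.1 CPM in FL-mut. Summed epithelial markers (4 of 5 read) ranged from 15.3 to 52.7 CPM in the EV, FL, FL-mut and SF-Nte libraries and from 22.9 to 151 CPM in SF-mut, immune markers (4 of 6 read) reached at most 34.7 CPM and endothelial markers (3 of 4 read) at most 21.4 CPM. The part of these markers in the results was not tested. In such bulk libraries, fewer cells with a transcript and less of it per cell cannot be told apart.

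Haem is an iron-containing porphyrin made by a chain of enzymes that begins and ends in the mitochondrion and passes through the cytosol. ALAS1 starts the chain in non-erythroid cells, UROD and CPOX trim the porphyrin side chains, and FECH inserts the iron. HCCS attaches haem covalently to mitochondrial cytochromes c, the PGRMC proteins are membrane proteins that bind haem and assist microsomal cytochromes in sterol metabolism, and haem oxygenases break haem down to biliverdin, iron and carbon monoxide.

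Upstream sequences are shown for PGRMC1, HCCS and ABCB6, the members whose level differed most between groups. They are from RefSeq (GRCh38.p14), 5′ to 3′ on the strand of the gene, and end before the earliest annotated start in RefSeq or GENCODE. Capitals mark GGGCGG or its reverse complement CCGCCC, a GC box bound by Sp-family factors.
PGRMC1, chrX:119236035-119236244, plus strand: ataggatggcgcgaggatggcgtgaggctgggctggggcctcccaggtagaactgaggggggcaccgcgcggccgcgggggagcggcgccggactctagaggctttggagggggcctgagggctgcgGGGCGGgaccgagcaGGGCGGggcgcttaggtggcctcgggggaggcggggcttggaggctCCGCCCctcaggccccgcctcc
HCCS, chrX:11111082-11111300, plus strand: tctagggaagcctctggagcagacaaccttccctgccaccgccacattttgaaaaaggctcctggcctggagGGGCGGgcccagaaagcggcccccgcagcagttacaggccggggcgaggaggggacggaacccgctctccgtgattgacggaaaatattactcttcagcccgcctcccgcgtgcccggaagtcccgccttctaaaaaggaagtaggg
ABCB6, chr2:219219018-219219208, minus strand: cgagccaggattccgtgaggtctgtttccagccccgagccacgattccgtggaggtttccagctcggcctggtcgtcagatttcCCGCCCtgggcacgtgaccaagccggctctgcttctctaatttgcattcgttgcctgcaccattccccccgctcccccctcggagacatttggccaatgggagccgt

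The GC content was 76.2% in the PGRMC1 stretch, 62.1% in that of HCCS and 61.8% in that of ABCB6. A search of both strands for CAGATG, the core of the element ZBTB18 is known to bind, found 0 matches in each of the 3. In windows of 250 bases before the RefSeq start, CAGATG was found in 2 of the 10 windows of 9 matched members, those of PGRMC2 and FECH, and in 12.2% of 35116 promoters. These windows were not cut at GENCODE starts. That of PGRMC2 (128287814 to 128288063) lies inside the gene as GENCODE places it, and that of FECH runs past the GENCODE start. The GC box was found in 9 of these 10 windows and in 42.6% of promoters. No window matched HMOX1.

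PGRMC1 (chromosome X, 119236245 to 119244466, plus strand, GRCh38; 2 annotated transcripts, with no overlapping gene) was high in EV and lower in every library of every construct. The 3 EV libraries held 1868, 4491 and 1571 CPM. FL libraries held 193, 437 and 288 CPM and those of FL-mut 110.1, 38.5 and 166 CPM. SF-Nte libraries held 116, 576 and 24.9 CPM and those of SF-mut 55.6, 18.5 and 20.5 CPM. The highest construct library, SF-Nte replicate 2, was thus still below the lowest EV library. Of all genes tested, 0.340% had every construct library below every EV library. This share is a description, since PGRMC1 was chosen on EV and FL-mut libraries. The counts behind these levels were 11664 summed over EV but 50 over SF-mut (34, 6 and 10), so relative counting error is largest in the lowest group. Scatter between libraries is another matter, and only in SF-Nte did the SD exceed the mean (239 ± 295 CPM).

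**Figure D1:**
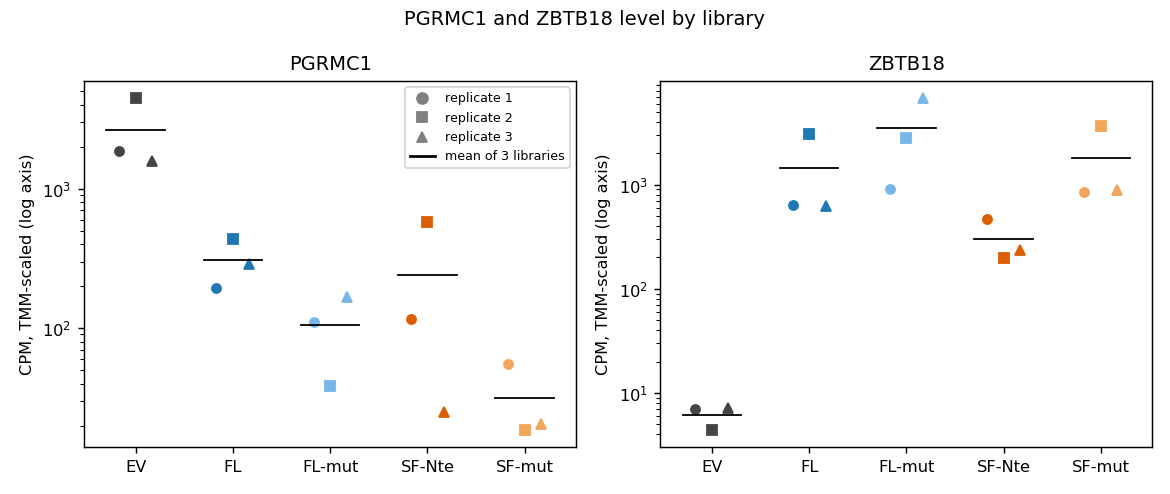
PGRMC1 (left) and ZBTB18 (right) in each of the 15 libraries, as TMM-scaled CPM on log axes, by group; symbols mark the replicate number and lines the mean of 3 libraries. The 3 EV libraries lie between 1571 and 4491 CPM for PGRMC1, above all 12 construct libraries, and between 4.37 and 7.12 CPM for ZBTB18, below all 12.

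Ordered by mean, PGRMC1 stood at 2643 ± 1607 CPM in EV (SD, n = 3), 306 ± 123 in FL, 239 ± 295 in SF-Nte, 105 ± 63.9 in FL-mut and 31.5 ± 20.8 in SF-mut. EV and FL, neighbours in this order, did not overlap, and 8.17% of all genes tested lay lower in FL in the same way. FL overlapped SF-Nte, SF-Nte overlapped FL-mut, and FL-mut overlapped SF-mut, so the order below EV does not separate neighbouring groups. On the log2 scale FL differed from EV by -3.11 ± 0.83 (SE) and its mutant by -4.65 ± 0.89, while SF-Nte differed by -3.46 ± 0.84 and its mutant by -6.33 ± 0.99. By fold change, PGRMC1 ranked 58, 10, 144 and 14 from the lowest among 6767 genes in that order. These 4 comparisons share the EV libraries, and the ranks are descriptions, because PGRMC1 was chosen on EV and FL-mut libraries. Without EV replicate 2, the highest, the values were -2.52, -4.07, -2.85 and -5.78, and without SF-Nte replicate 2 the SF-Nte value was -5.27. Without SF-mut replicate 1 the SF-mut value was -7.17.

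A first deposited sample sheet lists EV, FL, FL-mut and SF-Nte under barcodes of their own. SF-mut is on a second sheet with SF-Nte, under barcode names with a suffix and beside the same read-file names that the first sheet gives for EV. Whatever differed between the sheets cannot be told apart from SF-mut in its comparisons.

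Between constructs, PGRMC1 was 1.54 ± 0.79 (SE) lower on the log2 scale in FL-mut than in FL (log2 fold change -1.54), and these libraries did not overlap. Of all genes tested, 9.44% also lay lower in FL-mut than in FL without overlap. The contrasts that use neither EV nor FL-mut were tested. SF-mut against SF-Nte gave a log2 fold change of -2.87 ± 0.88 (95% interval -4.82 to -0.92), with an edgeR adjusted p = 0.57 over all genes. The difference did not pass, the libraries overlapped, and the value was -1.14 without SF-Nte replicate 2 and -3.69 without SF-mut replicate 1. With the filter, edgeR called 0 of 6767 genes in this comparison. Without the count filter PGRMC1 did pass (edgeR adjusted p = 2.71e-10), as 1 of 193 genes then called. The highest adjusted p over the alternative settings was 0.67. SF-Nte against FL gave -0.35 ± 0.77 (95% interval -2.07 to 1.38, adjusted p = 0.89), and its sign was not stable: -2.12 without SF-Nte replicate 2 and 0.19 without SF-Nte replicate 3.

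PGRMC2 (chromosome 4, 128269237 to 128288829, minus strand), the paralogue of PGRMC1, lacked the EV-high pattern. Its level was 52.0, 30.6 and 26.7 CPM in EV, 43.7, 27.4 and 42.6 in FL and 26.3, 13.6 and 20.6 in its mutant. SF-Nte libraries held 38.5, 20.7 and 57.3 and SF-mut libraries 53.9, 0 and 47.2. FL-mut libraries lay just below all EV and all FL libraries, and the other groups overlapped EV. The 0 was in the shallowest library (315693 counts), where a count of 0 allows a level of up to 9.25 CPM (3 counts). Against EV, the log2 fold change of FL was 0.05 ± 0.70 and that of its mutant -0.85 ± 0.72, and that of SF-Nte was 0.07 ± 0.72 and of its mutant -0.07 ± 0.72 (edgeR adjusted p from 0.72 to 0.997). Its 95% intervals reached from -2.45 to 1.68 over these 4 comparisons.

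HCCS (chromosome X, 11111301 to 11123078, plus strand) was read in 4 groups and in no SF-Nte library. Its level was 11.5, 5.10 and 8.90 CPM in EV, and FL libraries held 9.71, 21.1 and 11.6. FL-mut libraries reached 18.2, 41.9 and 31.0, and those of SF-mut 9.80, 12.3 and 14.4. All 3 SF-Nte libraries had 0 counts. SF-Nte stood below every other library, and FL-mut above all of EV. Counts were small: 40 summed over EV, 43 over FL, 97 over FL-mut and 17 over SF-mut. A floor of 3 counts over the SF-Nte group is 2.07 CPM. Summed over a group, HCCS stood at 6.35 times that floor in FL, 4.31 in EV and 5.78 in SF-mut. SF-mut against SF-Nte did not pass (edgeR adjusted p = 0.57). The floor covers counting error in SF-Nte only. Error in the small counts of the other groups is left out, so these ratios are not lower bounds. Amplified reads without molecular identifiers are also not independent molecules.

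HCCS was the 1 tested member that passed in SF-Nte against FL (edgeR adjusted p = 0.019), where 1.06% of the 6767 genes were called. It missed the threshold without FL replicate 2 (adjusted p = 0.071) and without SF-Nte replicate 1, 2 or 3 (0.093, 0.088 and 0.066). Its 7 libraries at the count filter's level included none of SF-Nte and 1 of FL, so it was tested through other groups, and it could not be tested in these 6 libraries alone. Among all tested genes, 1.70% had 0 counts in every SF-Nte library. Over the 5 groups together HCCS had adjusted p = 0.029 (1.12% of genes called), but 0.053 with the replicate number as a block and 0.054 to 0.097 without EV replicate 2, FL replicate 3, FL-mut replicate 2 or 3, or any SF-Nte library. Against EV it did not pass in SF-Nte (adjusted p = 0.20) or in FL-mut, where its log2 fold change was 1.81 ± 0.59 (adjusted p = 0.30).

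**Figure D2:**
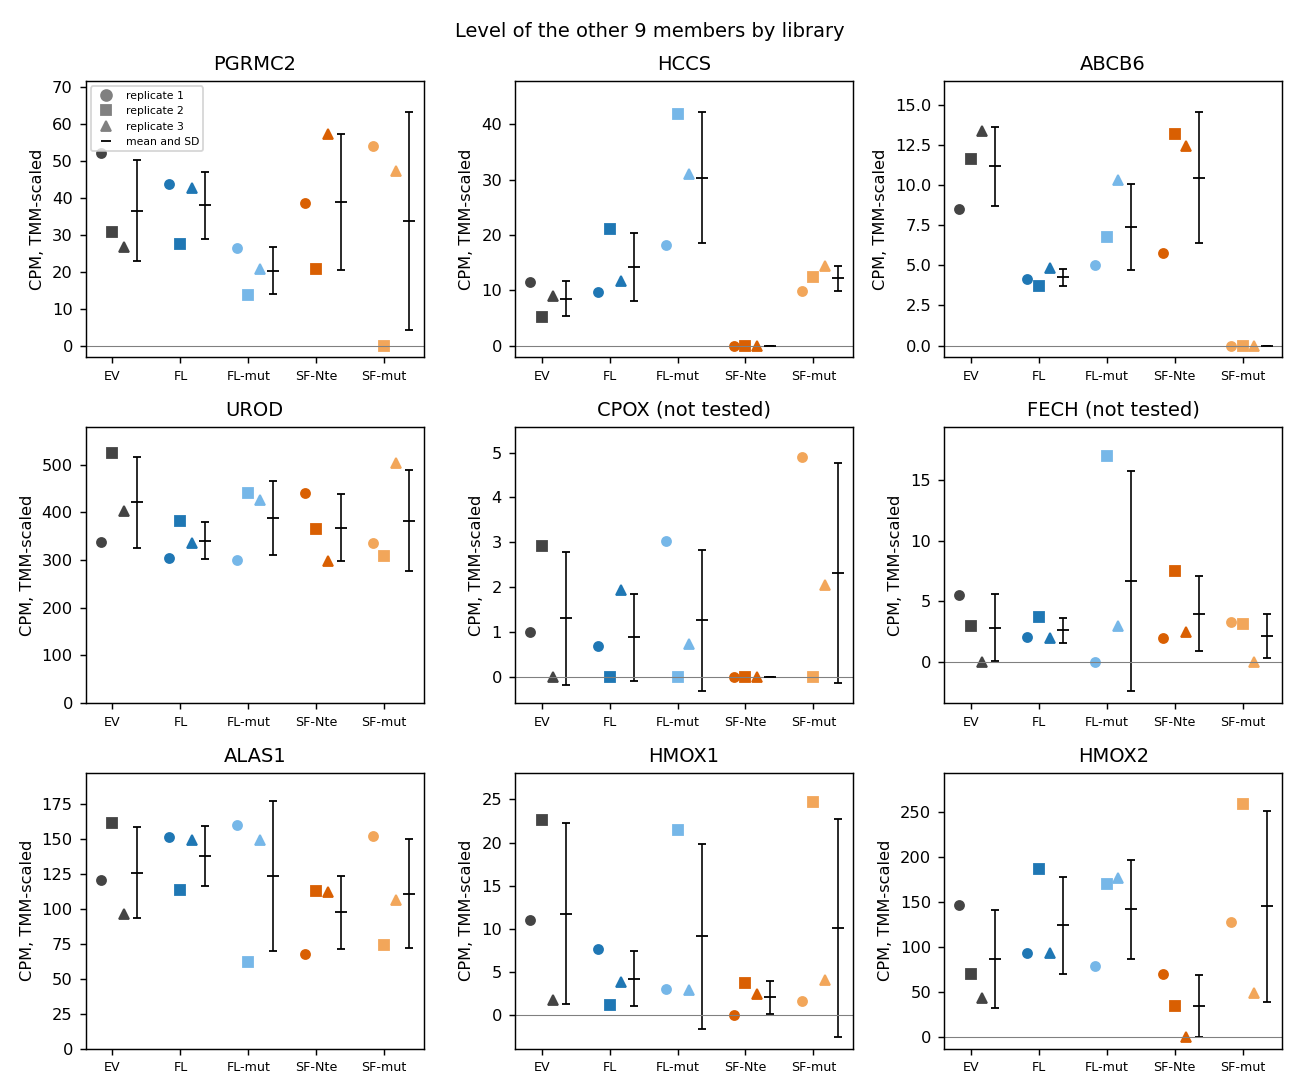
TMM-scaled CPM of the other 9 members in each library, by group; symbols mark the replicate number, and bars show the mean and SD of 3 libraries. HCCS is at 0 in all 3 SF-Nte libraries and ABCB6 in all 3 SF-mut libraries, whereas UROD stays between 299 and 525 CPM throughout; CPOX and FECH were too low to be tested.

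ABCB6 (chromosome 2, 219209766 to 219219017, minus strand), a porphyrin transporter of cell membranes, had 0 counts in the 3 SF-mut libraries. It stood at 8.50, 11.7 and 13.4 CPM in EV, and FL libraries held 4.16, 3.73 and 4.84. The mutant of FL gave 5.05, 6.79 and 10.3 CPM, and SF-Nte 5.78, 13.2 and 12.5. FL and SF-mut lay below all EV libraries, whereas FL-mut and SF-Nte overlapped EV. A floor of 3 counts over the SF-mut group is 2.11 CPM. Summed over a group, ABCB6 stood at 5.07 times that floor in EV and 4.90 times in SF-Nte. These ratios leave out error in the EV and SF-Nte counts, so they are not lower bounds. SF-mut did not pass against EV or against SF-Nte (edgeR adjusted p = 0.35 and 0.57). ABCB6 reached the count filter's level in 4 libraries, 2 of EV and 2 of SF-Nte, and so was tested through the groups where it was high. The counts were 48 over EV and 15 over SF-Nte, and 0.872% of tested genes had 0 counts in every SF-mut library. In FL the log2 fold change was -1.36 ± 0.77 (adjusted p = 0.78). A readthrough gene annotated on the same strand overlaps ABCB6, so its reads may be shared.

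ALAS1 and UROD, the synthesis enzymes with enough counts to be tested, passed in none of the 7 comparisons of groups. ALAS1 (chromosome 3, 52198086 to 52214327, plus strand), the rate-limiting enzyme, held 120.5, 161.0 and 96.2 CPM in EV, 151, 113 and 149 in FL and 160, 62.2 and 149 in its mutant. The short form gave 67.4, 113 and 112 CPM, and its mutant 152, 74.0 and 107. Only SF-Nte against FL was without overlap, and there the log2 fold change of -0.50 ± 0.40 did not pass (edgeR adjusted p = 0.64). The group means lay between 97.5 ± 26.0 CPM in SF-Nte and 138 ± 21.3 in FL (SD, n = 3). Its 95% intervals against EV ranged from -1.26 to 1.01 on the log2 scale over the 4 constructs.

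UROD (chromosome 1, 45012147 to 45015575, plus strand) had the lowest coefficient of variation within groups of the 10 members, 21.3%. It held 337, 525 and 402 CPM in EV, 304 to 383 in FL, and 299.9 to 440.3 in its mutant, then 299 to 441 in SF-Nte and 308 to 504 in the mutant short form, with overlap in all 7 comparisons. Against EV, the log2 fold change of FL was -0.30 ± 0.28 and that of its mutant -0.12 ± 0.28, and that of SF-Nte was -0.19 ± 0.28 and of its mutant -0.14 ± 0.28 (edgeR adjusted p from 0.90 to 0.997), with 95% intervals from -0.92 to 0.50.

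CPOX (chromosome 3, 98579446 to 98593723, minus strand) and FECH (chromosome 18, 57548283 to 57586772, minus strand) were too low for the count filter. CPOX had 17 counts in all 15 libraries together, at most 4 in any, and 0 in 7. FECH had 51 counts, of which 15 were in FL-mut replicate 2 (16.98 CPM), and its other 14 libraries lay between 0 and 7.53 CPM. When tested without the filter, neither passed in any comparison of groups.

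**Figure D3:**
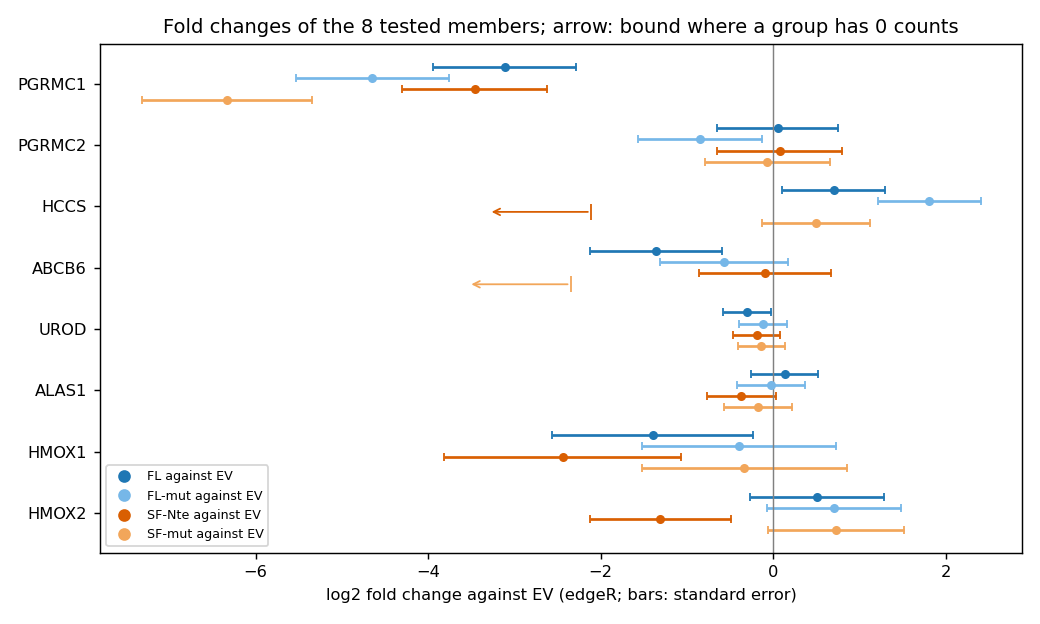
Fitted log2 fold change against EV of the 8 tested members, with its standard error, for each construct. Where a group had 0 counts (HCCS in SF-Nte, ABCB6 in SF-mut), an arrow starts at the ratio of its 3-count floor to EV. The figure title calls this ratio a bound, but it leaves out counting error in EV. PGRMC1 lies between -6.33 and -3.11 for all 4 constructs, while UROD and ALAS1 lie between -0.37 and 0.13.

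HMOX1 (chromosome 22, 35380361 to 35394214, plus strand), the stress-inducible oxygenase, varied within groups. It stood at 11.002, 22.6 and 1.78 CPM in EV, 7.63, 1.24 and 3.87 in FL and 3.03, 21.5 and 2.95 in its mutant. For SF-Nte the values were 0, 3.76 and 2.49, and for its mutant 1.63, 24.7 and 4.10. Replicate 2 was the highest of EV, FL-mut, SF-Nte and SF-mut, and the lowest of FL. All groups overlapped, and no comparison passed (edgeR adjusted p from 0.71 to 0.997).

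HMOX2 (chromosome 16, 4474690 to 4510347, plus strand), the constitutive oxygenase, stood at 147, 69.9 and 42.7 CPM in EV, 92.9, 187 and 92.9 in FL and 78.8, 170 and 177 in its mutant. SF-Nte libraries stood at 69.3, 33.9 and 0 and SF-mut libraries at 127, 259 and 49.2. SF-Nte lay below all FL libraries. That difference had a log2 fold change of -1.82 ± 0.83 and did not pass (edgeR adjusted p = 0.36), and SF-mut against SF-Nte gave 2.03 ± 0.84 (adjusted p = 0.58). All its counts were even, and 14 of 15 were multiples of 6, so the number of reads behind a count may be smaller than the count; the reason is not known. NMRAL1 overlaps it on the opposite strand, and whether the counting used strand is not given.

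Of the 7 tested members other than PGRMC1, 0 passed by edgeR adjusted p in FL against EV (0.310% of genes called), 0 with its mutant (0.192%), 0 with SF-Nte (0.0443%) and 0 with the mutant short form (0.0591%). At an unadjusted p under 0.05 there were 0, 1, 1 and 1 members, and 7.64%, 10.5%, 7.23% and 5.36% of genes. These were HCCS in FL-mut and SF-Nte and ABCB6 in SF-mut. DESeq2 called 0 of the 7 in each of these 4 comparisons. In every construct 1 of the 7 lay below all EV libraries, ABCB6 in FL and SF-mut, PGRMC2 in FL-mut and HCCS in SF-Nte, as did 8.17%, 9.07%, 11.3% and 7.68% of genes in FL, FL-mut, SF-Nte and SF-mut. HCCS in FL-mut was the 1 case above all EV libraries, where the shares of genes were 8.75%, 8.36%, 6.0% and 2.90%. Between constructs, 0 of the 7 passed in FL-mut against FL (0.0887% of genes) and 0 in SF-mut against SF-Nte, where edgeR called 0 of 6767 genes. At an unadjusted p under 0.05 there were 0 and 3 of the 7, and 12.1% and 8.33% of genes, and DESeq2 called 0 of the 7 in both. In each of these comparisons 1 member stood apart higher (8.97% and 5.75% of genes) and 1 lower (9.44% and 6.62%). In SF-Nte against FL, HCCS and HMOX2 and 13.2% of genes had an unadjusted p under 0.05. There ABCB6 stood apart higher (9.86% of genes), and HCCS, HMOX2 and ALAS1 stood apart lower (14.6%).

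The wider pathway was read from 5 lists of 61 genes, 39 of which were tested. Over the 7 comparisons, 1 of the 39 passed with the filter and edgeR. This was TMEM14C, a mitochondrial membrane protein needed for porphyrin import, in SF-Nte against FL. It held 459, 407 and 481 CPM in EV, 240.0, 157 and 224 in FL and 180, 394 and 261 in its mutant. Levels were 599, 518 and 543 for SF-Nte and 369, 564 and 367 for SF-mut. FL was below all EV libraries, as for 8.17% of genes, and below all SF-Nte libraries, as for 9.86%. TMEM14C rose by a log2 fold change of 1.42 ± 0.30 in SF-Nte against FL (edgeR adjusted p = 0.034). It missed the threshold without any 1 of the 6 libraries compared or without EV replicate 2 (adjusted p from 0.051 to 0.21), and with total counts in place of TMM scaling (0.059). In FL against EV the log2 fold change was -1.12 ± 0.30 (adjusted p = 0.16).

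Of the 13 listed genes of haem synthesis and membrane transport, 4 were tested, and 1 was higher in SF-Nte than in FL while 0 passed against EV. Against EV, the median log2 fold change was -0.92 for FL and 0.06 for its mutant, then -0.09 for SF-Nte and 0.54 for its mutant, beside -0.01, 0.04, -0.13 and -0.02 over all genes tested.

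Haem breakdown and sensing had 7 of 14 genes tested and 0 past the threshold in any comparison, with medians of 0.29, -0.04, 0.11 and 0.17 against EV in the same order. BLVRA, the reductase that turns biliverdin into bilirubin, had the lowest unadjusted p of the list. It held 209, 160 and 208 CPM in FL but 46.5, 124.5 and 67.8 in FL-mut, without overlap. Of all genes, 9.44% lay lower in FL-mut than in FL in this way. The log2 fold change was -1.28 ± 0.37 (edgeR adjusted p = 0.27). DESeq2 gave BLVRA an adjusted p = 0.049, in a comparison where it called 117 genes. The EV libraries held 113, 178 and 182 CPM.

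Iron supply and storage had 14 of 18 genes tested and 0 past the threshold, with medians of -0.20, 0.27, -0.08 and -0.06. PCBP1, an iron chaperone that also binds RNA, had the lowest unadjusted p. It stood at 250, 530 and 402 CPM in EV and at 186, 40.1 and 113 in SF-mut, without overlap. Of all genes, 7.68% lay lower in SF-mut than in EV in this way. The log2 fold change was -1.78 ± 0.59 (edgeR adjusted p = 0.63). Without the count filter PCBP1 did pass in this comparison (edgeR adjusted p = 0.0030), as 1 of 81 genes then called.

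Relatives and partners of PGRMC1 had 9 of 10 genes tested and 0 past the threshold. Their median log2 fold change against EV was 0.65 for FL (6 of 9 above 0) and 1.07 for its mutant (8 of 9), then -0.36 for SF-Nte (3 of 9) and 0.36 for its mutant (6 of 9). Of all genes, 50.4%, 48.2%, 57.2% and 51.6% lay below 0 in these comparisons. INSIG1, which holds the SREBP escort SCAP in the endoplasmic reticulum, had the lowest unadjusted p, in SF-Nte against FL. Its level was 4.50, 8.74 and 15.1 CPM in EV, 30.5, 137 and 150.03 in FL and 25.2, 10.2 and 38.3 in its mutant. With SF-Nte the levels were 0, 15.1 and 4.98, and with SF-mut 9.80, 0 and 4.10. FL was above all EV libraries, as for 8.75% of genes, and above all SF-Nte libraries, as for 14.6%. The log2 fold change of -3.93 ± 0.96 in SF-Nte against FL did not pass (edgeR adjusted p = 0.068), nor did that of 3.49 ± 0.88 in FL against EV (0.13). Other settings did call INSIG1: in SF-Nte against FL the adjusted p was 6.22e-05 without the count filter, 0.0022 by DESeq2, 0.049 with the compared groups alone, 0.047 without FL replicate 1 and 0.048 without SF-mut replicate 2. In FL against EV it was 0.00029 without the filter and 0.0054 by DESeq2. These 2 settings called many more genes than the main fit. In SF-Nte against FL they called 301 and 277 (72 in the main fit), and in FL against EV 202 and 116 (21).

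Respiratory haem proteins and haem a synthesis had 5 of 6 genes tested and 0 past the threshold, with medians of 0.14, -0.08, 0.26 and -0.27 against EV. SDHD, a membrane anchor of succinate dehydrogenase, had the lowest unadjusted p, in SF-Nte (181, 224 and 189 CPM) against EV (102, 101 and 176). The log2 fold change was 0.65 ± 0.30 (edgeR adjusted p = 0.67).

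**Figure D4:**
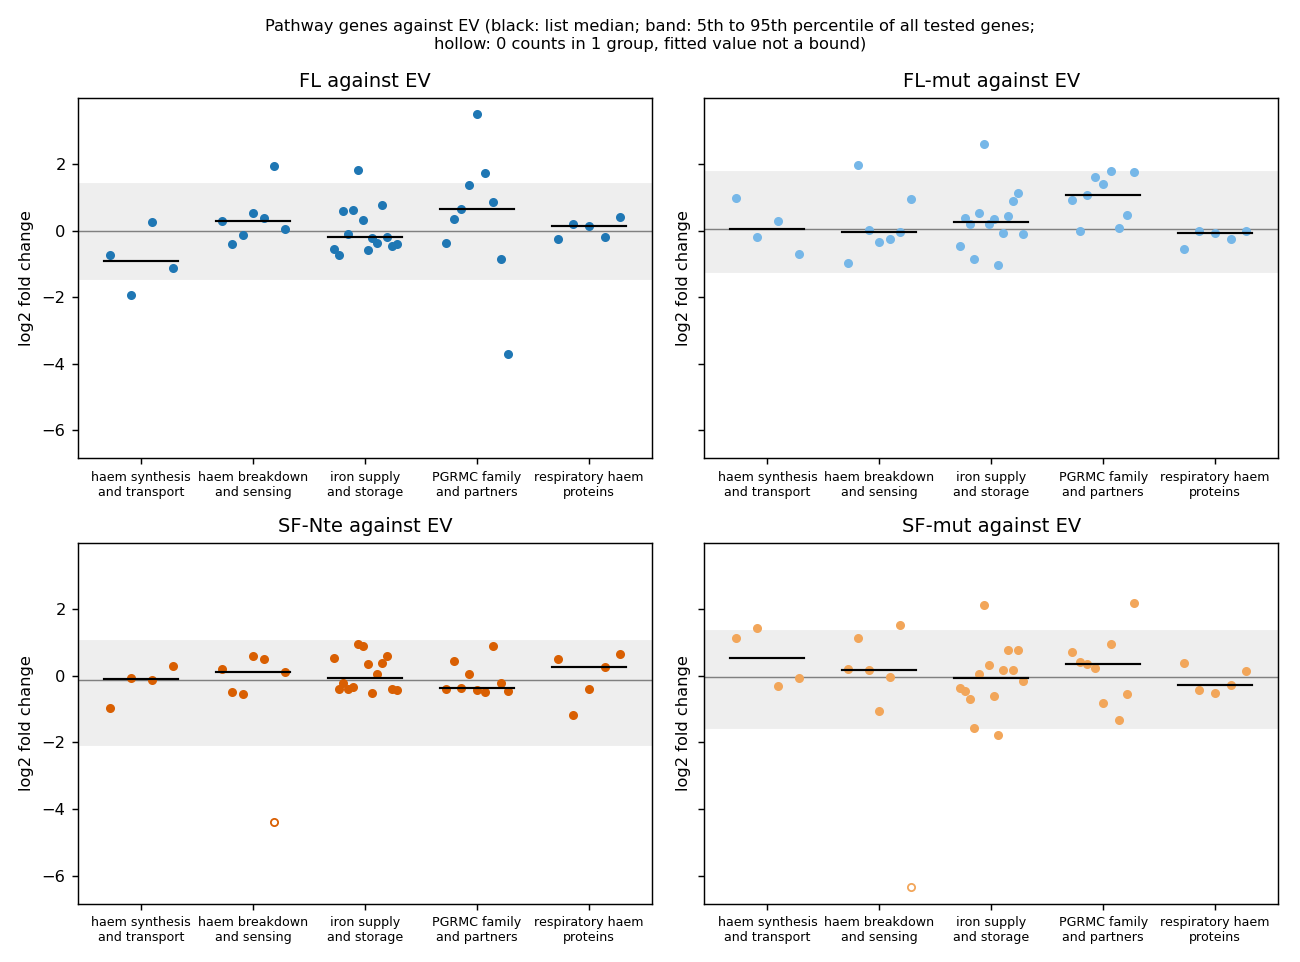
Fitted log2 fold changes of the 39 tested pathway genes against EV, by list and construct; black lines mark list medians, the grey line the median of all tested genes and the band their 5th to 95th percentile, and hollow points are genes with 0 counts in 1 group. The partners of PGRMC1 have their highest median, 1.07, in FL-mut.

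The genes whose pattern was most like that of PGRMC1 were described by Pearson's correlation of log2 CPM over the 15 libraries. The points share libraries, groups and depth, and no test was made. The 5 highest were YWHAB, a 14-3-3 adaptor protein (r = 0.85), ZBTB38, a zinc finger protein that binds methylated DNA (0.84), VOPP1 (0.83), LINS1 (0.82) and ADGRA3, an adhesion-type receptor (0.81). YWHAB held 1791, 1771 and 1769 CPM in EV, 859, 999 and 209 in FL and 692, 213 and 481 in its mutant. The 3 SF-Nte libraries held 601, 726 and 234 CPM, those of SF-mut 520, 213 and 82.0. As with PGRMC1, all EV libraries were above all construct libraries. Its EV libraries were nearly equal (1777 ± 12.1 CPM, SD, n = 3), whereas PGRMC1 ranged from 1571 to 4491 CPM there. ZBTB38 stood at 13.0, 27.7 and 25.8 CPM in EV and from 0 to 9.41 CPM in the constructs. VOPP1 held 443, 694 and 580 CPM in EV and 18.5 to 381 CPM in the constructs.

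Among the members, ABCB6 was most like PGRMC1, with r = 0.61 and rank 171 of 6766 genes. ALAS1 followed with 0.37, PGRMC2 with 0.26 and UROD with 0.24, then HMOX2 with 0.12, HMOX1 with 0.06 and HCCS with -0.10.

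**Figure D5:**
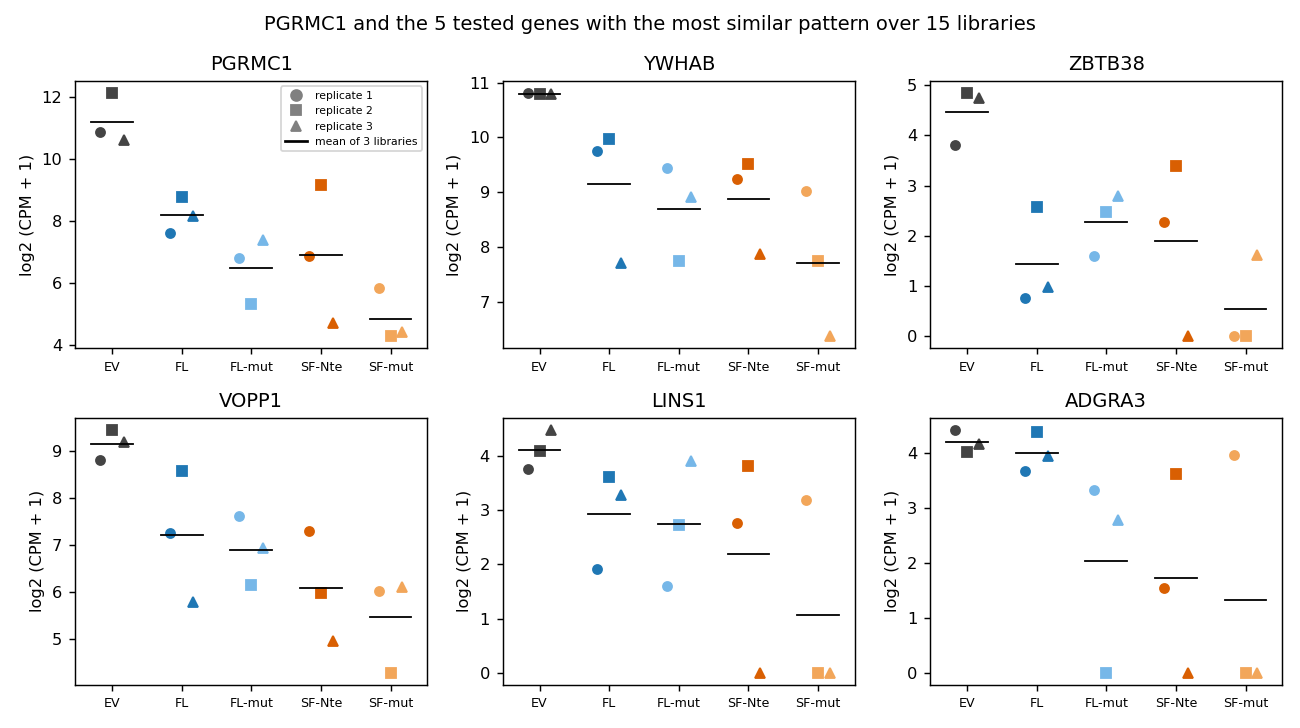
Levels of PGRMC1 and of the 5 tested genes most correlated with it, as log2 (CPM + 1) by library and group; symbols mark the replicate number and lines the mean of 3 libraries. The EV libraries lie above all construct libraries for PGRMC1, YWHAB (1769 to 1791 CPM in EV), ZBTB38 and VOPP1 (443 to 694 CPM), but overlap them for LINS1 and ADGRA3.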

How the data were processed

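RNA was purified on mRNA beads, and barcoded cDNA was amplified with kits of Oxford Nanopore, per the labels' protocols. Each value the authors deposited is a raw count, a whole number for 1 gene symbol in 1 library. GRCh38 is the build per the submitters' processing notes. Which aligner, counter, annotation and strand setting were used is not given in the sources used here. Columns were matched to samples through the barcode in the labels and the deposited sample sheets.

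The members, gene lists and rules were chosen with earlier results of these data known. The filter filterByExpr, with a minimum count of 10 and a total of 15, left 6767 of 18485 genes. Libraries were scaled by TMM, and edgeR 4.0.16 in R 4.3.3 fitted all 15 libraries by quasi-likelihood, each group with its own coefficient (10 residual degrees of freedom, robust dispersion), tested on simulated data. P-values were adjusted by Benjamini-Hochberg over all tested genes at 0.05. SE is the size of the log2 fold change over the square root of F. The 95% intervals use that SE and the 10 residual degrees of freedom. Levels are CPM, given with the SD of 3 libraries. Named were all 10 members, ZBTB18, of each list up to 4 genes past the threshold or otherwise the 1 of lowest p, and the 5 genes most correlated with PGRMC1 (prior count 2).

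Alternatives were DESeq2 1.42.0, its size factors or total counts in edgeR, no filter, the compared groups alone, the replicate block and each library left out. Over 6767 genes, same-number libraries of EV and FL had deviations from group means that correlated at 0.27, 0.095 and 0.27. There, 6 of 6 libraries correlated best with their own number. No comparison had all 3 over 0.1, so numbers were not taken to pair samples. For FL against EV only the value of 0.095 missed that limit, so pairing there is not excluded. Positions are from GENCODE v29 (GRCh38).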

Additional observations from a re-analysis of the deposited data

How the results depend on the processing

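The counts of members below include PGRMC1, which was chosen on these libraries, so its part in them is a description; every call against EV and that in FL-mut against FL was of PGRMC1. No called value of a member changed direction under any alternative tried. The number of members called in FL-mut against EV fell from 1 to 0 with DESeq2 size factors, with total counts, with the compared groups alone and with the replicate block. In FL against EV it rose from 0 to 1 without the filter, with DESeq2 and with the compared groups alone, and in SF-Nte against EV from 0 to 1 without the filter and with DESeq2. Without the filter it also rose from 0 to 1 in FL-mut against FL, from 0 to 3 in SF-mut against SF-Nte (PGRMC1, HCCS and HMOX2) and from 1 to 2 in SF-Nte against FL, where the compared groups alone gave 0, as HCCS then missed the filter. Over the 5 groups it fell from 2 to 1 with the replicate block and was 3 without the filter, which added HMOX2, and with DESeq2, which added ABCB6. With 1 library left out, it ranged from 0 to 1 in FL-mut, SF-Nte and SF-mut against EV and in SF-Nte against FL, and from 1 to 2 over the 5 groups; the SF-mut call was lost without any 1 of the 3 SF-mut libraries. Calls over all genes moved more: without the filter they were 202 in FL against EV (21 with it), 219 in FL-mut (13), 121 in SF-Nte (3), 81 in SF-mut (4), 348 in FL-mut against FL (6), 193 in SF-mut against SF-Nte (0), 301 in SF-Nte against FL (72) and 1059 over the 5 groups (76). DESeq2 called 116, 150, 26, 26, 117, 4, 277 and 641 in that order, and the compared groups alone 13, 3, 1, 2, 0, 0 and 130 in the 7 comparisons. DESeq2 size factors gave 1 and the replicate block 5 in SF-Nte against EV. With 1 library left out the counts ranged from 6 to 39, 1 to 28, 0 to 5, 1 to 6, 2 to 10, 0 to 0, 12 to 91 and 36 to 140. In FL against EV, 6 of 6 libraries correlated best with their own number, and in the other comparisons 0 to 3 of 6 did. The cause of these shifts was not tested. The shallow short-form libraries limit HCCS and ABCB6. CPOX and FECH were low in the deeper groups as well, with 0 and 1 libraries of the whole series at the count filter's level.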
